A study of Homo sapiens with 65 samples.

Results

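Human left-ventricular cardioids that received hyaluronidase from day 2.5 onward were compared at day 7.5 and day 4.5 of differentiation, with 3 libraries at each day. These 6 libraries, of 65 in the series, are all those whose titles give the enzyme from day 2.5. Cardioids are self-organising heart-like aggregates grown from induced pluripotent stem cells, here the line WTC-11 with a genotype labelled WT. Each day has 1 library from each of 3 WTC-11 lines named TNNI1, WT and TNNT2, so the days were paired by line, and values below are always given in that order of lines. A library is a pool of 8 cardioids. The earlier group carried the enzyme up to day 4.5 and the later group up to day 7.5, and the dose is not given in the labels used here. Per the labels, mesoderm was induced with FGF2, LY294002, activin A, BMP4 and CHIR99021, patterning medium followed, and the medium became a cardiomyocyte differentiation medium after day 4.5. Age, length of exposure and medium therefore changed together and cannot be told apart within this course. Untreated cardioids and cardioids given the enzyme from day 1.5, with 3 libraries of the same lines at both days, serve as the comparison courses.

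Hyaluronan is a long sugar polymer made at the cell surface by hyaluronan synthases, and hyaluronidase cuts it. In the embryonic heart it fills the cardiac jelly between muscle and endocardium together with versican and link protein, which bind it. During the days studied here cardiac progenitors become beating cardiomyocytes: sarcomeres are assembled from myosin, actin, troponin and Z-disc proteins, calcium channels and stores are put in place, and cell division slows. Gene expression was read with a 3′ kit (QuantSeq FWD), which counts reads near the 3′ end of each mRNA. Levels are given in CPM, each gene's count scaled to a common library total. In whole cardioids a lower level can mean fewer cells of a type or less RNA per cell, and these cannot be told apart.

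Library totals in the course ranged from 1281116 to 1559861 counts, and 16883 to 17417 genes had at least 1 count. Mitochondrial genes took 0.354% to 0.514% of counts at day 4.5 and 0.629% to 0.832% at day 7.5. The 10 most abundant genes took 6.95% to 8.81% at day 4.5 and 10.3% to 13.1% at day 7.5, so both shares separated the days. The labels call the cells cardiac progenitors at day 4.5 and cardiomyocytes at day 7.5. Against fixed markers, cardiomyocyte transcripts were already abundant at day 4.5: TNNT2, cardiac troponin T, had 3780.2, 3191 and 2039 CPM and TTN, the giant sarcomere spring titin, had 21196, 18228 and 11629.9 CPM. Early mesoderm markers were low at that day, with MESP1 at 5.03, 0.781 and 1.92 CPM, while the progenitor gene ISL1 had 71.9, 96.8 and 122 CPM. The day 4.5 libraries thus held transcripts of both states.

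From day 4.5 to day 7.5, 385 of 12748 genes tested changed (3.02%) by edgeR's quasi-likelihood test with Benjamini-Hochberg adjustment at 0.05. Of these, 251 rose (1.97% of genes tested) and 134 fell (1.05%), and 292 changed by at least 1 on the log2 scale. The median log2 change was 1.56 among genes that rose and −1.43 among genes that fell, against −0.005 over all genes. All 385 moved the same way in 3 of 3 lines, and for 375 the 3 values of one day did not overlap those of the other. The genes were selected by a test of the same libraries, so this agreement largely follows from the selection and is not a replication. The shares over all genes are not given here. Every one of the 6 libraries weighed on the number of calls. Leaving out the TNNI1, WT or TNNT2 library of day 4.5 gave 202, 160 and 141 calls, and leaving out those of day 7.5 gave 155, 234 and 189. With a whole line left out, 129 genes were called without TNNI1, 170 without WT and 23 without TNNT2, and without the line term in the fit there were 246. Of 80 called genes followed through the alternatives, 35 passed with each of the 6 libraries left out in turn and 12 passed in all 14 alternative fits. The 12 are DMD, FGF18, PRDM16, PLXNA4, SERPINI1 and LAMA2, which rose, and HAPLN1, DHRS3, DUSP6, NPY, PRTG and NR6A1, which fell.

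DMD, which encodes dystrophin, the link between the cytoskeleton and the laminin-binding complex of the muscle membrane, had the lowest adjusted p of all genes tested. It had 3.59, 0.781 and 1.28 CPM at day 4.5 and 80.3, 34.9 and 82.5 CPM at day 7.5, and the days did not overlap. Its log2 change was 5.14 ± 0.40 (SE, adjusted p = 3.42e-08). The gene lies on GRCh38 chromosome X, 31097677 to 33339441. MYOZ2, a Z-disc protein that binds calcineurin, had no count in any day 4.5 library and 14.5, 6.71 and 12.4 CPM at day 7.5. That is at least 15.8-fold higher against a floor of 3 counts over the group (adjusted p = 0.00397). MLIP, a lamin-interacting muscle protein, was likewise near 0 at day 4.5, at 0.719, 0 and 0 CPM, and had 17.3, 7.38 and 9.17 CPM at day 7.5. The ratio of its summed counts was 47.4 (8.13 to 1910.1), the range being a 95% counting interval.

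NPPA, the precursor of atrial natriuretic peptide, differed widely between lines. It had 10.1, 0 and 0.641 CPM at day 4.5 and 313, 9.39 and 70.7 CPM at day 7.5. The WT line at day 7.5 lay just below the TNNI1 line at day 4.5, so the groups overlapped although each line moved upward, and the log2 change was 5.21 ± 0.78 (adjusted p = 0.00176). Without the line term NPPA did not pass (adjusted p = 0.0875). CORIN, the protease that activates this peptide, was chosen after its values were seen. It rose from 15.1, 0.781 and 3.21 to 37.4, 20.1 and 26.9 CPM (log2 2.36 ± 0.58, adjusted p = 0.0267). CORIN did not pass without the line term (adjusted p = 0.0829) and lost the call in each fit that left out 1 library (0.0603 to 0.169) except that without the TNNI1 library of day 4.5, where its log2 change was 3.57.

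Several genes with roles outside the sarcomere were among the largest increases. FGF18, a secreted growth factor, had 0, 0.781 and 2.56 CPM at day 4.5 and 34.6, 32.2 and 47.8 CPM at day 7.5 (log2 5.03 ± 0.83, adjusted p = 0.00155). PRDM16, a transcriptional regulator with a role in compact heart muscle, went from 0.719, 0.781 and 2.56 to 15.9, 31.5 and 31.4 CPM (log2 4.23 ± 0.69). PLXNA4, a semaphorin receptor, went from 7.19, 3.12 and 7.05 to 105, 77.8 and 128 CPM (log2 4.22 ± 0.48). For these 3 genes the days did not overlap. SERPINI1, the secreted protease inhibitor neuroserpin, rose by 5.29 ± 0.59 and was highest in the WT line at day 7.5 (96.6 CPM against 24.2 and 51.1). TMEM176B, a membrane protein, rose by 4.25 ± 0.70, to 45.0, 45.6 and 30.1 CPM. SORCS3, a sorting receptor, SPHKAP, an anchor of protein kinase A, and TMEM255A, a membrane protein, had 3, 2 and 2 counts over the 3 day 4.5 libraries. Their count ratios were 39.8 (13.3 to 196), 21.8 (5.71 to 186) and 50.3 (13.6 to 420.5), with 95% counting intervals.

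**Figure D1:**
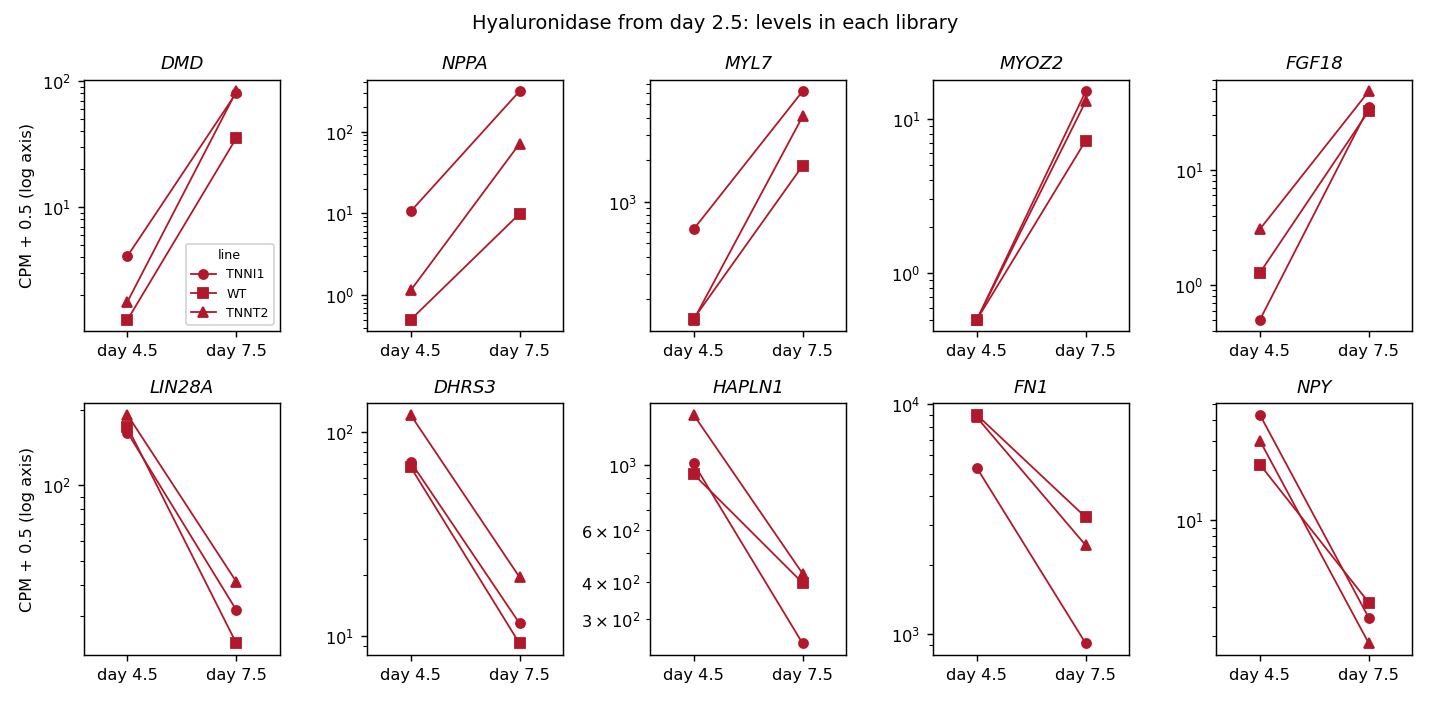
Levels of 10 genes in each library of the course, as CPM + 0.5 on a log axis, with each line's day 4.5 and day 7.5 libraries joined. The upper row shows genes that rose and the lower row genes that fell, and every line moves in the same direction. NPPA is the 1 panel in which the days overlap.

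Sarcomere genes were higher at day 7.5 wherever they were called. Of 30 listed genes 29 were tested, 9 rose, none fell, and all 29 log2 values were above 0 with a median of 1.30, against −0.005 over all genes. Over all genes 1.97% rose and 1.05% fell, and the counts of list members below are to be read beside these shares. MYL7, the regulatory light chain of atrial and embryonic heart muscle, had 633, 144 and 141 CPM at day 4.5 and 6197, 1808 and 4082 CPM at day 7.5. The TNNI1 line had the highest level at both days and the days did not overlap (log2 3.85 ± 0.73, adjusted p = 0.00895). MYOM1, the M-band protein myomesin, had 250.1, 118 and 144 and then 1251, 645 and 880.2 CPM (log2 2.54 ± 0.47, adjusted p = 0.00636). SMPX, a small protein of striated muscle, had 51.0, 57.0 and 40.4 and then 187, 142 and 223 CPM (log2 2.06 ± 0.38, adjusted p = 0.00640). These 3 and MYOZ2 were joined by MYL3 (log2 3.13 ± 0.70), a myosin essential light chain, TCAP (2.62 ± 0.61), which caps titin at the Z-disc, and TNNC1 (2.08 ± 0.49), cardiac troponin C. MYH7 (1.97 ± 0.43), the beta myosin heavy chain, and ACTN2 (1.56 ± 0.36), the Z-disc actinin, complete the 9. MYH7 went from 9.34, 6.24 and 6.41 to 40.1, 17.4 and 22.3 CPM and is a near-identical copy of MYH6, so reads shared between them make both values uncertain.

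Several of the most abundant sarcomere genes did not pass. TTN had log2 0.81 ± 0.31 (adjusted p = 0.208), with 35858, 22861 and 24218 CPM at day 7.5. TPM1, alpha-tropomyosin, had 0.65 ± 0.38 (adjusted p = 0.470), and TNNT2 had 0.96 ± 0.50 (adjusted p = 0.402). MYH6, the alpha myosin heavy chain, had 3452, 2244 and 1576 CPM at day 4.5 and 8964, 4329.5 and 5749.8 CPM at day 7.5, values that did not overlap, with log2 1.53 ± 0.65 and an adjusted p of 0.287. Over the 8 cardiomyocyte markers the summed level was 17286 to 30974 CPM at day 4.5 and 36912 to 59948 CPM at day 7.5. The number of sarcomere members called was 5, 4 and 1 without the TNNI1, WT or TNNT2 library of day 4.5 and 3, 6 and 6 without those of day 7.5. It was 6 without the line term.

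Calcium handling genes were also called in 1 direction. Of 12 tested, 4 rose, none fell, and all 12 were above 0, with a median of 0.96. CACNA1C, the pore of the L-type calcium channel, had 37.4, 38.2 and 38.5 CPM at day 4.5 and 123, 107 and 108 CPM at day 7.5, a narrow range over the lines at each day (log2 1.65 ± 0.32, adjusted p = 0.00395). Its accessory subunit CACNB2 rose by 1.85 ± 0.41, to 72.7, 73.8 and 61.6 CPM. SRL, a calcium-binding protein of the sarcoplasmic reticulum, rose by 1.58 ± 0.43, and ASPH, whose locus also encodes the reticulum protein junctin, by 0.82 ± 0.19. The release channel RYR2 had log2 0.55 ± 0.50 (adjusted p = 0.708) and TRDN, triadin, 1.41 ± 0.45 (adjusted p = 0.110). Without the TNNI1, WT or TNNT2 library of day 4.5 the list had 3, 1 and 1 calls, and 2 without any one of day 7.5.

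Among 13 ion channel and gap junction genes tested, POPDC2 alone was called. This membrane protein binds cyclic AMP and had 7.19, 1.56 and 3.85 CPM at day 4.5 and 42.2, 33.6 and 30.1 CPM at day 7.5 (log2 3.17 ± 0.61, adjusted p = 0.00565). CACNA1D and GJC1, a calcium channel and a connexin, were the most abundant uncalled members, with log2 0.61 ± 0.40 and 0.03 ± 0.23. Natriuretic peptides and YAP targets had 14 tested members, of which NPPA rose. ANKRD1, a YAP target and sarcomere protein, had 84.8, 1.56 and 14.1 CPM at day 4.5 and 437, 82.5 and 141 CPM at day 7.5 (log2 2.94 ± 0.90, adjusted p = 0.104), with the TNNI1 line highest at both days and the groups overlapping. TEAD1, the DNA-binding partner of YAP, and FSTL1, a secreted glycoprotein, had log2 0.08 ± 0.18 and −0.07 ± 0.20.

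Genes of smooth muscle type cytoskeleton, which early cardiomyocytes also express, had 11 tested members with a median of 0.82: 4 rose and 1 fell. ACTA2, smooth muscle actin, had 448, 308 and 326 CPM at day 4.5 and 1294, 1225 and 1568 CPM at day 7.5 (log2 2.01 ± 0.50, adjusted p = 0.0365). ACTA2 did not pass when any 1 of the 6 libraries was left out (adjusted p = 0.0637 to 0.194), nor by DESeq2 (0.0903). MYL9, a myosin regulatory light chain, rose by 2.03 ± 0.48, TAGLN, the actin-binding transgelin, by 1.88 ± 0.44, and CNN1, calponin, by 1.5 ± 0.39. TPM4, a cytoskeletal tropomyosin, fell by 0.74 ± 0.17 (adjusted p = 0.0145), from 743, 946 and 867 to 419, 504 and 505 CPM. Without the TNNI1 or WT library of day 4.5, or the WT or TNNT2 library of day 7.5, TPM4 did not pass (adjusted p = 0.0669 to 0.0933). TPM2 and FLNA, the most abundant uncalled members, had log2 0.82 ± 0.24 and 0.16 ± 0.27. Without the TNNI1, WT or TNNT2 library of day 4.5 the list had 2, 0 and 0 increases, and 0, 2 and 0 without those of day 7.5. MYLK, myosin light chain kinase, and FHL2, a LIM protein of heart muscle, were chosen after their values were seen. MYLK went from 5.75, 6.24 and 4.49 to 63.0, 43.6 and 54.4 CPM (log2 3.43 ± 0.73, adjusted p = 0.0115) and FHL2 from 70.4, 25.8 and 40.4 to 290.0, 171 and 174 CPM (log2 2.34 ± 0.40, adjusted p = 0.00223).

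The CArG box, the DNA element bound by serum response factor in many muscle genes, was searched by its usual consensus on both strands in the 250 bases before each start of the RefSeq promoters on GRCh38.p14. It was present in 312 of 27305 promoters (1.14%) and in 108 of 9758 promoters of tested genes (1.11%). Among genes that rose, 209 had a promoter entry and 10 held the element (4.79%), and among genes that fell 2 of 105 did (1.90%), TPM4 and SINHCAF. The 10 are FHL2, ATXN1, FBXL22, MYOM1, H2BC21, RPS6KA2, MYL7, MYLK, ASB2 and GPR183. The 170 bases before the start of 4 of them are printed because their levels are described above, with the CArG box in capitals, 5′ to 3′ on the gene's own strand, which is the minus strand for all 4. They lie at chr7:44141333-44141502 (MYL7), chr18:3219969-3220138 (MYOM1), chr3:123620549-123620718 (MYLK) and chr2:105438514-105438683 (FHL2).
MYL7: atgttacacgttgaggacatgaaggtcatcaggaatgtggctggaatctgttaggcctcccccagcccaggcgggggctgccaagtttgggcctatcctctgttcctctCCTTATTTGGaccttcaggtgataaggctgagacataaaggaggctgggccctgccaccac
MYOM1: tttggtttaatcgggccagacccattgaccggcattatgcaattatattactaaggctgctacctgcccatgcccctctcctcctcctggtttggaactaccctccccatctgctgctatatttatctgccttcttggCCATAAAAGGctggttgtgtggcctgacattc
MYLK: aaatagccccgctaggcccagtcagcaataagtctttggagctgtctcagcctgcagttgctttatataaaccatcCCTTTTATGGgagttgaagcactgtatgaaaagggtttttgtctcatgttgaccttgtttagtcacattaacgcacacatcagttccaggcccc
FHL2: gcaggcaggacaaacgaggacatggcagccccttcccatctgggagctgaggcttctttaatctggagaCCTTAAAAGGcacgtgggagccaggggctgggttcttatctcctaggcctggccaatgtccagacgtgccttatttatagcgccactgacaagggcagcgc
The element begins 61 bases before the start in MYL7, 32 in MYOM1, 94 in MYLK and 101 in FHL2. Only the first promoter entry of each symbol was searched, so a printed start can be that of a shorter transcript from inside the gene. Which MYLK transcript starts at the printed window was not examined, and counts near the 3′ end cannot separate transcripts that share it. These matches describe the letters only, and no binding was measured.

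Further muscle genes were chosen after their values were seen. MB, the oxygen-binding protein myoglobin, went from 27.3, 14.8 and 39.7 to 253, 57.7 and 109 CPM (log2 2.30 ± 0.45, adjusted p = 0.00606). MYH7B, a slow-type myosin, rose by 2.60 ± 0.50 and TRIM63, a sarcomere ubiquitin ligase, by 2.07 ± 0.50. HSPB1, a small heat-shock protein that protects the cytoskeleton, went from 1177, 1083 and 990.5 to 2352, 1823 and 2268 CPM (log2 1.09 ± 0.23).

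**Figure D2:**
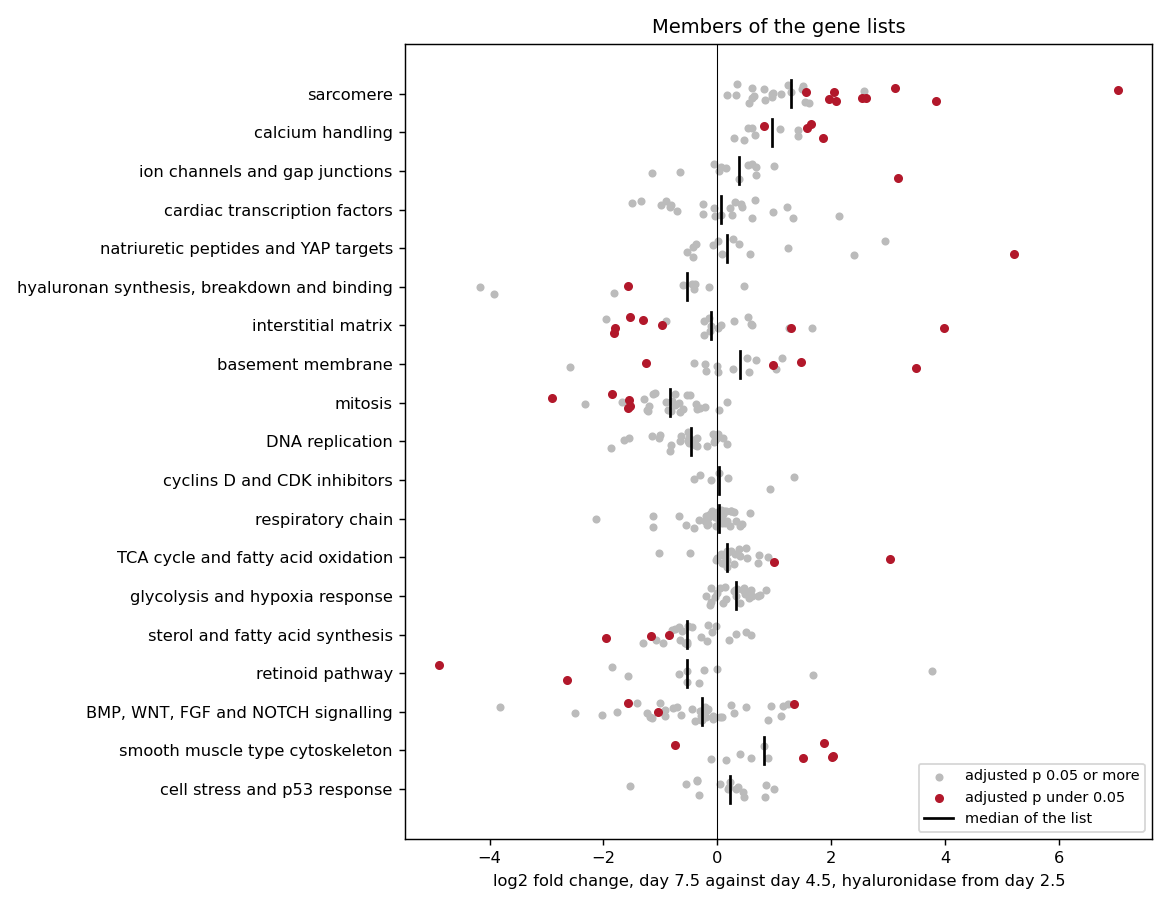
Each point is 1 tested member of a gene list, placed by its log2 fold change from day 4.5 to day 7.5 in the course with hyaluronidase from day 2.5. Red points passed at an adjusted p under 0.05 and black bars are list medians. The sarcomere list has its 9 called members on the right and the mitosis list its 5 on the left.

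No cardiac transcription factor was called by edgeR. Of 23 tested, 10 had an unadjusted p under 0.05, DESeq2 called 3, and the median was 0.06, with 12 values above 0. Over all genes 14.5% had an unadjusted p under 0.05 by edgeR, and the unadjusted counts below are to be read beside this share. NKX2-5, a core regulator of cardiac fate, had 537, 368 and 421 CPM at day 4.5 and 606, 436 and 503 CPM at day 7.5 (log2 0.32 ± 0.38, adjusted p = 0.790). MYOCD, the coactivator of serum response factor, had 978, 919 and 669.9 and 939, 1021 and 899 CPM (log2 0.25 ± 0.32), so the days overlapped. MEF2C, a muscle regulator, had 755, 771 and 587 CPM at day 4.5 and 389, 325 and 328 CPM at day 7.5; the days did not overlap, yet the test gave log2 −0.91 ± 0.50 with an adjusted p of 0.447. IRX4, a ventricular factor, had 13.7, 21.1 and 8.33 and then 54.0, 85.2 and 32.1 CPM (log2 2.13 ± 0.70, adjusted p = 0.128). Outside the list, 3 nuclear factor I genes were called and were chosen after their values were seen. NFIC rose from 95.6, 70.3 and 76.3 to 183, 162 and 129 CPM (log2 1.06 ± 0.18, adjusted p = 0.00223). NFIB and NFIA rose by 1.20 ± 0.30 and 1.05 ± 0.29, with the WT line highest at both days and the groups overlapping.

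HAS2, the main hyaluronan synthase of the embryonic heart, is knocked out in other libraries of the series, while the genotype here is labelled WT. It had 822, 562 and 514 CPM at day 4.5 and 469, 464 and 398 CPM at day 7.5 on GRCh38 chromosome 8, 121612116 to 121641390. All day 7.5 values lay below all day 4.5 values, but the log2 change of −0.42 ± 0.28 did not pass (adjusted p = 0.546). Of 24 listed genes of hyaluronan synthesis, breakdown and binding, 10 were tested, 1 fell and none rose, with a median of −0.53. The gene that fell was HAPLN1, the link protein that ties hyaluronan to versican, on GRCh38 chromosome 5, 83637805 to 83721613. It had 1008, 927 and 1474 CPM at day 4.5 and 246, 396 and 426 CPM at day 7.5, with no overlap between the days. HAPLN1 fell by 1.57 ± 0.20 on the log2 scale (adjusted p = 6.42e-05). VCAN, versican, had 2451, 2225 and 1909.8 and 3441, 2471 and 2569 CPM (log2 0.46 ± 0.27, adjusted p = 0.469).

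The interstitial matrix had members on both sides: of 22 tested, 5 fell and 2 rose, with a median of −0.11. FN1, fibronectin, had 5301, 9009 and 8785 CPM at day 4.5 and 913, 3229 and 2440.1 CPM at day 7.5; it was lowest in the TNNI1 line at both days and fell by 1.80 ± 0.30 (adjusted p = 0.00211). FBLN1, fibulin 1, fell by 1.53 ± 0.30, TNC, tenascin C, by 1.81 ± 0.41, COL1A2 by 1.30 ± 0.30 and COL1A1 by 0.97 ± 0.26, the last 2 being the chains of type I collagen. FBN2, the fibrillin of embryonic tissues, rose from 434, 297 and 290.4 to 945, 629 and 749.8 CPM (log2 1.29 ± 0.23, adjusted p = 0.00223). POSTN, periostin, had 3 counts over the day 4.5 libraries and rose to 2.77, 4.03 and 30.1 CPM, most of it in the TNNT2 line, with a count ratio of 17.7 (5.75 to 88.4). COL6A1 and COL3A1, both abundant collagens, had log2 −0.12 ± 0.18 and 0.01 ± 0.33. Without the TNNI1, WT or TNNT2 library of day 4.5 the list had 2, 3 and 2 decreases, and 3, 3 and 2 without those of day 7.5, while its increases became 1 without either TNNT2 library.

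In the basement membrane, laminin chains were called in both directions. Laminins are trimers of alpha, beta and gamma chains, and the alpha chain sets which receptors they bind. LAMA2, the alpha 2 chain of muscle laminin, had 3.59, 5.46 and 3.21 CPM at day 4.5 and 31.1, 67.1 and 34.1 CPM at day 7.5 (log2 3.48 ± 0.49, adjusted p = 2.24e-04). LAMA1, the chain of early embryonic laminin, went the other way, from 69.7, 80.4 and 69.9 to 24.2, 36.9 and 25.5 CPM, and fell by 1.26 ± 0.23 (adjusted p = 0.00283). LAMB2 rose by 0.97 ± 0.26 and LAMA4 by 1.47 ± 0.39, but neither passed when any 1 of the 6 libraries was left out. LAMC1, the common gamma chain, had 269, 342 and 262 and 253, 271 and 282 CPM (log2 −0.01 ± 0.27). Of 16 listed genes tested, 3 rose and 1 fell, with a median of 0.39. With any 1 of the 6 libraries left out, 1 increase was called. NID2, a nidogen that bridges laminin and collagen IV, had log2 −0.21 ± 0.28.

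Of 30 mitotic genes tested, 5 fell, 25 did not pass and none rose. The median was −0.83, with 2 values above 0. CCNB2, a mitotic cyclin, had 22.3, 24.2 and 29.5 CPM at day 4.5 and 5.54, 7.38 and 6.55 CPM at day 7.5 and fell by 1.86 ± 0.40 (adjusted p = 0.0100). CDK1, the kinase that drives entry into mitosis, had 41.0, 30.4 and 59.6 and then 10.4, 16.1 and 14.4 CPM and fell by 1.55 ± 0.41 (adjusted p = 0.0374). PLK1, a kinase of spindle assembly, fell by 1.58 ± 0.40, PRC1, which bundles the central spindle, by 2.90 ± 0.77, and CCNA2, an S-phase and mitotic cyclin, by 1.53 ± 0.41. In each of these 5 genes the days did not overlap. PLK1 and PRC1 overlap other annotated genes (ERN2 and AC068831.7), as do CACNA1C, ETV5, ACTA2, NPPA, POPDC2, TMEM176B and UCK2, and how reads in an overlap were assigned is not given in the sources used here. TOP2A and CENPF, the most abundant uncalled members, had log2 −0.74 ± 0.40 (adjusted p = 0.420) and −1.10 ± 0.33 (adjusted p = 0.0856). No mitotic gene was called without the TNNT2 library of day 4.5, and none without the TNNI1 or TNNT2 library of day 7.5. There was 1 without the TNNI1 or the WT library of day 4.5 and 3 without the WT library of day 7.5, and 1 without the line term.

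The 4 called mitotic genes with the lowest p are shown with the letters before their start, because promoters of this class often carry a cell-cycle homology region and CCAAT boxes. TTTGAA and CCAAT, with their reverse complements, were searched in the same 250 bases. TTTGAA was present in 14 of the 25 mitosis promoters with an entry (56%), 3704 of 27305 in all (13.6%) and 822 of 9758 among tested genes (8.42%). CCAAT was present in 20 of the 25 (80%), 9021 of all (33.0%) and 3464 of tested genes (35.5%). Promoters of genes that fell held TTTGAA in 14 of 105 (13.33%) and CCAAT in 38 of 105 (36.19%). Promoters of genes that rose held them in 25 of 209 (11.96%) and 63 of 209 (30.14%). The shares of 56% and 80% thus describe the mitosis list and not the genes that fell. The list was not chosen by these letters, and the matches are given with no test. Capitals mark TTTGAA and CCAAT in the 170 bases before the start, 5′ to 3′ on the gene's strand, and no match printed overlaps another. The windows are chr15:59104976-59105145 (CCNB2, plus strand), chr16:23678719-23678888 (PLK1, plus strand), chr10:60778161-60778330 (CDK1, plus strand) and chr15:90994536-90994705 (PRC1, minus strand).
CCNB2: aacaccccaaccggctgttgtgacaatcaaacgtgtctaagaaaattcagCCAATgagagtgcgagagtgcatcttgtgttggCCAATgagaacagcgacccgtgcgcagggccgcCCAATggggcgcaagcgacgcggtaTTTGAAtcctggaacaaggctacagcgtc
PLK1: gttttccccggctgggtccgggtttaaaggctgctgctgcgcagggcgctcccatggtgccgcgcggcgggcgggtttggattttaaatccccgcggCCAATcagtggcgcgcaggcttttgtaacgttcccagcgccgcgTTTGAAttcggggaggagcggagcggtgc
CDK1: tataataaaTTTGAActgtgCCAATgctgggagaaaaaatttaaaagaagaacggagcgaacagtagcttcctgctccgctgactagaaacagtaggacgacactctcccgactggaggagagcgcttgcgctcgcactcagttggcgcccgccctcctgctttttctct
PRC1: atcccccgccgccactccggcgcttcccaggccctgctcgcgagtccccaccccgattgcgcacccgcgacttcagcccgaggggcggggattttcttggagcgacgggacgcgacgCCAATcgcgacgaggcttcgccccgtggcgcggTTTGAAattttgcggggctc
TTTGAA began 29 bases before the start in CCNB2 and PLK1, 20 in PRC1 and 161 in CDK1. In CCNB2, PLK1 and PRC1 it lay closer to the start than every CCAAT match printed. In CDK1 it lay further from the start than the CCAAT match, which began at 150. Whether any of these matches is a cell-cycle homology region was not tested. CCNB2 held 3 CCAAT matches, beginning 120, 87 and 54 bases before the start, and the other 3 genes held 1 each in this window.

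Genes of DNA replication had 30 tested members, 0 calls and a median of −0.47, with 3 of the 30 log2 values above 0. At an unadjusted p under 0.05 there were 3, beside 14.5% over all genes, and DESeq2 called 0. MCM3, a replicative helicase subunit, had 76.2, 83.5 and 87.8 CPM at day 4.5 and 63.0, 72.5 and 69.4 CPM at day 7.5 (log2 −0.18 ± 0.19, adjusted p = 0.758), and RRM1, ribonucleotide reductase, had log2 −0.66 ± 0.51 (adjusted p = 0.633). D cyclins and CDK inhibitors had 7 tested members with 0 calls by edgeR, by DESeq2 and at an unadjusted p under 0.05: CCND2 had 118, 134 and 138 and 87.9, 128 and 83.2 CPM, and CDKN1C, an inhibitor of cell division, had 53.9, 55.4 and 72.4 and 59.5, 54.4 and 58.3 CPM. Both overlapped between the days.

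Metabolic genes changed in few members. CPT1A, which admits long-chain fatty acids to mitochondria, had 0.719, 7.81 and 3.85 CPM at day 4.5 and 9.69, 40.9 and 43.9 CPM at day 7.5; it was lowest in the TNNI1 line at both days and rose by 3.03 ± 0.47 (adjusted p = 7.03e-04). ETFB, a carrier of electrons from fatty acid oxidation, rose by 0.99 ± 0.25 but did not pass when any 1 of the 6 libraries was left out. These were the 2 calls among 25 tested TCA cycle and fatty acid oxidation genes, whose median was 0.18. HADHA and MDH2, the most abundant uncalled members, had log2 0.25 ± 0.16 and −0.02 ± 0.23. Of 37 respiratory chain genes edgeR and DESeq2 called 0 (4 at an unadjusted p under 0.05), with a median of 0.03: ATP5MC3 and COX4I1 had log2 −0.17 ± 0.48 and −0.04 ± 0.18. Of 24 glycolysis and hypoxia genes both tools called 0 (3 unadjusted), with a median of 0.32: GAPDH had 4781, 3273 and 4128 and 6997, 3730.3 and 5169.6 CPM (log2 0.47 ± 0.42, adjusted p = 0.695) and ENO1 log2 −0.12 ± 0.21.

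Lipid synthesis genes fell in 3 of 25 tested members and rose in none, with a median of −0.54 and 4 of 25 values above 0. SCD, the stearoyl-CoA desaturase, had 558, 482 and 424 CPM at day 4.5 and 214, 234 and 168 CPM at day 7.5 and fell by 1.16 ± 0.25 (adjusted p = 0.00867). FASN, the fatty acid synthase, had 324, 366 and 322 and then 202, 149.6 and 172 CPM and fell by 0.85 ± 0.19 (adjusted p = 0.0120). SREBF1, the transcription factor of this pathway, fell by 1.96 ± 0.45, from 24.4, 20.3 and 12.8 to 2.77, 6.71 and 3.93 CPM. SC5D and FADS1 had log2 −0.53 ± 0.28 and −0.51 ± 0.16 with no overlap between days, and neither passed. The 3 calls became 2, 1 and 3 without the TNNI1, WT or TNNT2 library of day 4.5 and 1, 2 and 0 without those of day 7.5. Cell stress and p53 response genes had 0 calls by either tool among 16 tested (2 unadjusted), with a median of 0.22; the chaperone HSPA5 had log2 0.22 ± 0.15 and the stress factor ATF4 0.04 ± 0.27.

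Retinoid handling genes were called in 1 direction, downward. Retinoic acid is made from retinaldehyde, and DHRS3 reduces retinaldehyde back to retinol while CYP26 enzymes break retinoic acid down. DHRS3 had 71.2, 67.1 and 121 CPM at day 4.5 and 11.1, 8.72 and 19.0 CPM at day 7.5, with no overlap between the days. DHRS3 fell by 2.64 ± 0.37 (adjusted p = 2.85e-04). CYP26A1 had 12.9, 10.9 and 5.77 CPM at day 4.5 and 1 count over the day 7.5 libraries, and the count ratio of day 4.5 to day 7.5 was 43.2 (7.34 to 1749) (adjusted p = 0.0102). CRABP2, a retinoic acid carrier, had 472, 601 and 526 and then 59.5, 168 and 181 CPM, a difference with no overlap that did not pass (log2 −1.84 ± 0.71, adjusted p = 0.227). CYP26A1 did not pass without the TNNI1 or the TNNT2 library of day 7.5 (adjusted p = 0.0919 and 0.0516). In all, 2 of 12 tested genes fell and none rose, with a median of −0.53. Per the labels, the first patterning medium held retinoic acid and the make-up of the later media is not in the text used here, so its part was not tested.

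Signalling genes of the BMP, WNT, FGF and NOTCH pathways had 42 tested members, of which 1 rose and 2 fell, with a median of −0.27. Over all genes 1.97% rose and 1.05% fell, so the 1 increase was near the share over all genes. DUSP6, the phosphatase induced by FGF and ERK signalling that limits it, had 643, 961 and 748 CPM at day 4.5 and 143, 318 and 284 CPM at day 7.5, and fell by 1.57 ± 0.25 (adjusted p = 9.87e-04). ETV5, a transcription factor induced by the same pathway, fell by 1.03 ± 0.25, from 96.3, 97.6 and 68.0 to 28.4, 49.7 and 43.9 CPM. Of the 6 libraries, the TNNT2 library of day 4.5 alone could be left out of the fit for ETV5 without losing the call (adjusted p = 0.0531 to 0.160 in the others). ERBB2, the neuregulin co-receptor of heart muscle, rose by 1.35 ± 0.25 (adjusted p = 0.00289), from 76.2, 67.1 and 47.4 to 192, 117 and 138 CPM. ID2, a BMP target, and SFRP1, a secreted WNT inhibitor, had log2 −0.40 ± 0.19 and 0.94 ± 0.37 and did not pass.

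Some pluripotency and progenitor transcripts fell. LIN28A, an RNA-binding protein that blocks let-7 maturation, had 162, 170.2 and 190.4 CPM at day 4.5 and 31.1, 22.8 and 40.6 CPM at day 7.5 and fell by 2.38 ± 0.23 (adjusted p = 8.30e-07). DPPA4, a chromatin protein of early embryos, fell by 2.11 ± 0.27, and DNMT3B, a DNA methyltransferase, by 0.98 ± 0.24. These were 3 of 6 pluripotent cell markers tested, whose summed level was 327 to 389 CPM at day 4.5 and 79.6 to 115 CPM at day 7.5. The core factor POU5F1 was at 0.719, 2.34 and 3.85 CPM at day 4.5, and ZFP42 had no count in any of the 6 libraries. PDGFRA, a receptor of cardiac progenitors, had 285, 305 and 178 and then 65.1, 103 and 95.6 CPM and fell by 1.47 ± 0.24 (adjusted p = 0.00115), the 1 call among 9 progenitor markers. Their summed level was 845 to 899 CPM at day 4.5 and 292 to 558 CPM at day 7.5. ISL1 had log2 −1.51 ± 0.47 (adjusted p = 0.104).

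Other genes of early embryonic cells were chosen after their values were seen. PRTG, the neural and mesodermal receptor protogenin, had 679, 852 and 796 CPM at day 4.5 and 257, 225 and 213 CPM at day 7.5 and fell by 1.64 ± 0.19 (adjusted p = 2.39e-05). NR6A1, an orphan nuclear receptor that is itself a target of let-7, had 351, 519.9 and 457 and then 119, 111 and 113 CPM and fell by 1.84 ± 0.16 (adjusted p = 1.97e-07). Both had narrow ranges at day 7.5. SALL1, a zinc-finger regulator, fell by 2.05 ± 0.38, LIN28B, the paralogue of LIN28A, by 0.93 ± 0.18, and LIFR, the receptor of leukaemia inhibitory factor, by 1.49 ± 0.25. VIM, vimentin, fell by 0.82 ± 0.18, from 924, 1213 and 1183 to 439, 736 and 613 CPM, FLT1, a VEGF receptor, by 0.80 ± 0.20, and TFPI, an inhibitor of coagulation, by 1.27 ± 0.23. APOC1 went from 78.3, 62.4 and 72.4 to 20.8, 13.4 and 11.1 CPM and fell by 2.15 ± 0.32, both APOC1 and its neighbour APOE being apolipoproteins. APOE fell by 1.25 ± 0.32 (adjusted p = 0.0291) but did not pass without the line term (adjusted p = 0.104), nor without the TNNI1 or TNNT2 library of day 4.5 or the WT or TNNT2 library of day 7.5 (0.0848 to 0.190).

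The 12 largest decreases among genes above 10 CPM included APOB, CDH4 and DHRS3 and the neuropeptides NPY and NTS. NPY had 42.4, 21.1 and 29.5 CPM at day 4.5 and 2.08, 2.68 and 1.31 CPM at day 7.5, and fell by 3.75 ± 0.47 (adjusted p = 4.96e-05). NTS, neurotensin, went from 12.2, 13.3 and 20.5 to 1.38, 0 and 1.31 CPM and fell by 3.89 ± 0.56. L1TD1, an RNA-binding protein of pluripotent cells, was uneven among lines at day 4.5 (55.3, 8.59 and 51.3 CPM) and fell by 4.59 ± 0.79. UCK2, a pyrimidine salvage kinase, fell by 2.62 ± 0.52 and CDH4, the adhesion protein R-cadherin, by 2.95 ± 0.67. ATP8B4, a phospholipid flippase, SLC7A3, a transporter of cationic amino acids, and RUBCNL, an autophagy protein, fell by 3.26 ± 0.70, 3.04 ± 0.79 and 3.15 ± 0.77. COL9A2, a chain of collagen IX, and LURAP1L had 2 and 1 counts over the day 7.5 libraries, and their count ratios of day 4.5 to day 7.5 were 25.3 (6.63 to 215) and 58.0 (9.98 to 2332). COL9A2 did not pass when any 1 of the 6 libraries was left out (adjusted p = 0.0558 to 0.178).

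Markers of other cell types were low in several lists. APOB, a liver and yolk sac apolipoprotein, was the 1 call among 8 tested endoderm and liver-type markers and is described with the untreated course, while HNF4A and FGB had no count in the 6 libraries. The summed level of that list was 46.2 to 134 CPM at day 4.5 and 49.0 to 87.9 CPM at day 7.5. Endothelial markers had 8 tested members and 0 calls by edgeR and DESeq2 (1 unadjusted), with sums of 226 to 270 CPM and 128 to 309 CPM at the respective days. The epicardial list had 3 tested members and 0 calls by either tool or unadjusted, with sums of 8.63 to 17.3 and 3.46 to 17.7 CPM and with UPK3B, UPK1B, BNC1 and MSLN at 0. Fibroblast markers had 6 tested members, of which POSTN rose and COL1A1 and PDGFRA fell, with sums of 1099.8 to 1668 CPM at day 4.5 and 554 to 1220.0 CPM at day 7.5. The neural list had 2 tested members and 0 calls by either tool or unadjusted, with a sum of 29.5 to 50.0 CPM at day 4.5 and 11.1 to 37.3 CPM at day 7.5 and with PAX6, SOX1, SOX10, FOXD3 and NEUROG1 at 0. No blood marker was tested, and 7 of 8 had no count. The part of these cell types in the results, and that of the mitochondrial share, was not tested.

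The same interval in untreated cardioids addresses which of these changes also occur without the enzyme. The same test in untreated libraries gave 1032 calls (8.1% of genes tested), of which 553 were higher (4.34%) and 479 lower (3.76%). Of the 385 genes called in the enzyme course 228 were called there too, which is 59.2% of the enzyme list and 22.1% of the untreated list, and all 228 moved in the same direction. By sign alone 372 of the 385 moved the same way, and the 13 others did not pass in untreated cardioids. Across all 12748 genes Pearson's r between the log2 changes was 0.544, as a description: genes are not independent, and the courses share lines but no library. The median absolute log2 change of the 385 genes, which were selected in the enzyme course, was 1.5 there and 1.17 in untreated cardioids.

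**Figure D3:**
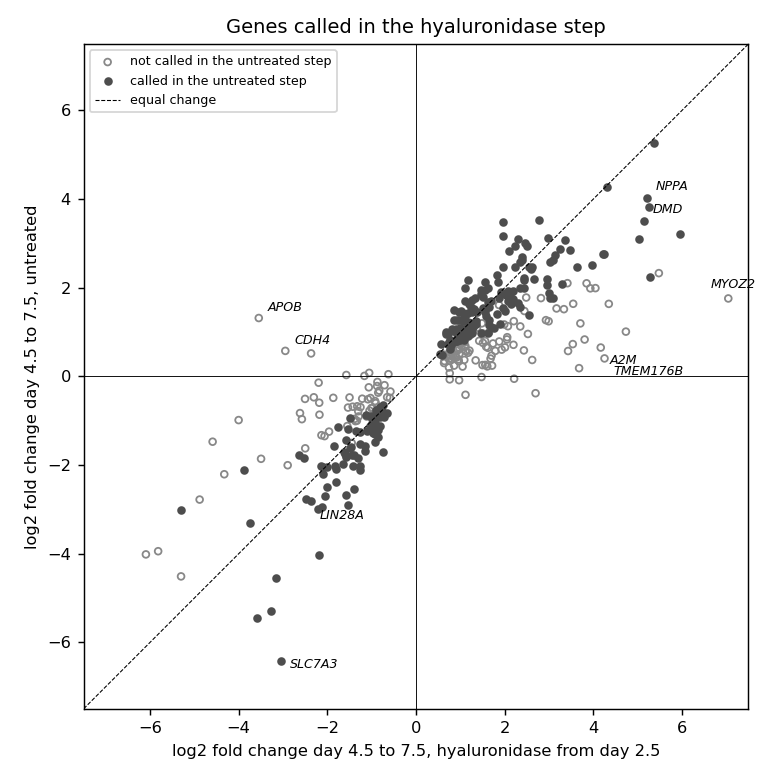
Each point is 1 of the 385 genes called in the course with hyaluronidase from day 2.5, with its log2 fold change in that course on the horizontal axis and in untreated cardioids on the vertical axis. Filled points were called in both (228 genes) and the dashed line marks equal change. The 13 genes of opposite sign include APOB and CDH4.

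The untreated day 7.5 libraries had mitochondrial shares of 1.05%, 0.902% and 2.39%, against 0.629% to 0.832% with the enzyme. On the second principal component (14.6% of the variance) they lay at −59.6, −11.5 and −81.2, against −25.0, 7.53 and −4.08. The part of these in the comparison was not tested. The difference between the 2 courses, tested as an interaction, passed for 0 of 12748 genes (0%) by edgeR's quasi-likelihood test with Benjamini-Hochberg adjustment. At an unadjusted p under 0.05 there were 705 genes (5.53%), and DESeq2 called 2. APOB and A2M had the smallest adjusted p. APOB had 30.2, 11.7 and 6.41 CPM at day 4.5 and 0.692, 2.01 and 0.655 CPM at day 7.5 with the enzyme, and 56.0, 13.3 and 29.2 and then 215, 23.0 and 42.3 CPM without it, on GRCh38 chromosome 2, 21001429 to 21044073. It fell in the enzyme course (log2 −3.55 ± 0.71, adjusted p = 0.00560) and had log2 1.32 in untreated cardioids. The decrease did not pass without the line term (adjusted p = 0.115), without the TNNI1 library of day 7.5 (log2 −2.64, adjusted p = 0.122) or without the TNNI1 or the TNNT2 line (0.276 and 0.0867). The difference was −4.87 (95% interval −6.58 to −3.15, adjusted p = 0.0607), in the same direction in all 3 lines. It was past the threshold by DESeq2, without the filter on low counts, in a fit of only the compared libraries, and without the WT library of untreated day 7.5 (adjusted p = 0.00992), of enzyme day 7.5 (0.0156) or the TNNT2 library of enzyme day 4.5 (0.0236). Its adjusted p ranged from 1.06e-07 to 0.961 over the alternatives. The endoderm and liver-type list, APOB included, summed to 94.6 to 303 CPM at day 4.5 and 136 to 586 CPM at day 7.5 in untreated cardioids. With the enzyme it summed to 46.2 to 134 and 49.0 to 87.9 CPM, so the courses overlapped at day 4.5. No member of the list passed the test of the difference. The median difference of the list's 8 tested members, APOB among them, was −1.54, with 1 value above 0. AFP and FGB had at most 1 count in any library of the enzyme course and were tested because of their untreated levels. Their sign was thus largely set in advance, and the median is not independent of the APOB result. AFP, alpha-fetoprotein, averaged 3.24 and then 37.3 CPM in untreated cardioids and 0 and then 0.218 CPM with the enzyme, and APOA2, an apolipoprotein, 19.0 and 30.6 against 7.05 and 1.10 CPM. The mean of APOA1, another apolipoprotein, was higher at day 7.5 in both courses. It was 62.2 and then 91.4 CPM in untreated cardioids and 35.8 and then 64.9 CPM with the enzyme. The part of such cells in the APOB result was not tested.

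A2M, alpha-2-macroglobulin, a secreted protease inhibitor, showed the opposite pattern, on GRCh38 chromosome 12, 9067664 to 9116229. It rose from 4.31, 7.03 and 1.28 to 74.1, 55.0 and 69.4 CPM with the enzyme (log2 4.17 ± 0.45, adjusted p = 4.82e-05) and had 21.2, 24.9 and 8.35 and then 23.2, 31.9 and 20.8 CPM without it (log2 0.65). The enzyme course thus began below the untreated course in all lines and ended above it. With the enzyme from day 1.5 A2M had no count at day 4.5 and 18.7, 25.9 and 16.03 CPM at day 7.5 (adjusted p = 2.64e-05). The difference was 3.52 (95% interval 2.26 to 4.77, adjusted p = 0.0881) and did not pass, but it did so in the same 3 alternative fits and without the WT library of enzyme day 7.5 (adjusted p = 0.0340), over a range of 1.08e-04 to 1. ZNF503, a transcriptional regulator, and TP53I11, a p53-inducible gene, had log2 0.13 and 0.13 in the enzyme course against −1.74 and −0.95 in untreated cardioids (adjusted p of the difference 0.646 and 0.517). CDH4 had −2.95 against 0.58 (difference −3.52, adjusted p = 0.646). IL1RL1, the interleukin 33 receptor, rested on very few counts, with 1.44, 0.781 and 1.28 CPM and then no count with the enzyme (adjusted p of the difference 0.517).

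For the contractile and matrix genes the intervals of the difference were wide. MYL7 differed by 1.75 (95% interval −0.24 to 3.73), NPPA by 1.17 (−0.95 to 3.30), MYOM1 by 0.08 (−1.27 to 1.43) and CCNB2 by −0.27 (−1.37 to 0.82). HAPLN1 differed by 1.11 (0.52 to 1.71, adjusted p = 0.840), having gone from 427, 504 and 636 to 75.0, 70.2 and 76.4 CPM in untreated cardioids. Differences of these sizes did not pass after adjustment over all genes. By list, the untreated course called 7 of 29 sarcomere genes higher (median 1.18), 5 of 12 calcium handling genes higher (1.08) and 6 of 30 mitosis genes lower (−0.99). Over all genes the untreated course called 3.76% lower and the enzyme course 1.05%. The untreated course called 15 of 25 lipid synthesis genes lower (median −1.20) against 3 of 25 (median −0.54) with the enzyme, and the list median of the difference was 0.65, against 0.02 over all genes. That list summed to 6238 to 6361 CPM at day 4.5 and 2091 to 2914 CPM at day 7.5 in untreated cardioids. With the enzyme it summed to 3850 to 4168 and 2437 to 2799 CPM, so the courses were apart at day 4.5 and overlapped at day 7.5. Of 22 interstitial matrix genes the untreated course called 8 lower and 2 higher (median −0.80). No member of any list passed the test of the difference.

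Cardioids given the enzyme from day 1.5 had the same interval as a second comparison course. That course had 1212 calls (9.51% of genes tested), 659 higher (5.17%) and 553 lower (4.34%). Of the 385 genes 279 were called there, 72.5% of one list and 23.0% of the other, all 279 in the same direction, and r across all genes was 0.616. Its day 4.5 libraries stood apart from each other: on the first principal component of the 24 libraries of the enzyme arm (43.7% of the variance) they lay at −34.7, 16 and −6.47 for TNNI1, WT and TNNT2. The libraries of the course from day 2.5 lay at 25.9, 26.2 and 16.7 at day 4.5 and at 55.9, 53.8 and 52.4 at day 7.5. The part of this spread in the results below was not tested.

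The difference from the course begun at day 1.5 passed for 2 of 12748 genes (0.0157%), DMD (1 higher, 0.00784%) and CCDC80 (1 lower, 0.00784%), by edgeR's quasi-likelihood test with Benjamini-Hochberg adjustment, with 663 at an unadjusted p under 0.05 (5.20%). DMD had 8.07, 14.7 and 14.6 CPM at day 4.5 and 43.2, 28.8 and 52.3 CPM at day 7.5 when the enzyme began at day 1.5, a log2 change of 1.81 against 5.14 when it began at day 2.5. Levels with the later start were lower at day 4.5, 3.59, 0.781 and 1.28 CPM, and higher at day 7.5, 80.3, 34.9 and 82.5 CPM, in all 3 lines. Those day 4.5 levels rest on few counts per library. Untreated cardioids had 24.6, 12.4 and 21.6 and then 209, 169.8 and 231 CPM, above both enzyme courses at day 7.5 in every line. The difference between the enzyme courses was 3.33 (95% interval 2.22 to 4.44, adjusted p = 0.0151). It did not pass without the line term or in a fit of only the compared libraries (adjusted p = 0.167 in both). It did not pass with any whole line left out (0.134 without TNNI1 and 0.0888 without WT). Nor did it without the TNNI1 library of day 7.5 of either course (0.0889 and 0.0637), the WT library of day 4.5 of the later start (0.0944), its TNNT2 library of either day (0.309 and 0.105) or the TNNT2 library of day 4.5 of the earlier start (0.118).

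CCDC80, a secreted protein of the extracellular matrix, had log2 changes of opposite sign in the enzyme courses, on GRCh38 chromosome 3, 112596794 to 112649530. With the enzyme from day 2.5 it had 668, 1118 and 956 CPM at day 4.5 and 392, 605 and 514 CPM at day 7.5 (log2 −0.75 ± 0.21, adjusted p = 0.0536). With the enzyme from day 1.5 it had 158, 371 and 243 and then 387, 625 and 507 CPM (log2 1.11, adjusted p = 0.00160). Untreated cardioids had 682, 1300.1 and 1442 and then 242, 595 and 441 CPM (log2 −1.32, adjusted p = 5.38e-04). In each line the 3 courses differed more at day 4.5 than at day 7.5. The difference between the enzyme courses was −1.86 (95% interval −2.48 to −1.23, adjusted p = 0.0151). It did not pass without the line term (adjusted p = 0.827) nor in 8 of the 12 fits that leave out 1 library, where the adjusted p was 0.0521 to 0.127. These were all 3 day 4.5 libraries and the WT and TNNT2 day 7.5 libraries of the later start, and the TNNI1 library of either day and the TNNT2 library of day 4.5 of the earlier start. The difference also did not pass without the TNNI1 line or the TNNT2 line (adjusted p = 0.475 for the latter), and it passed without the WT line (0.0350).

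**Figure D4:**
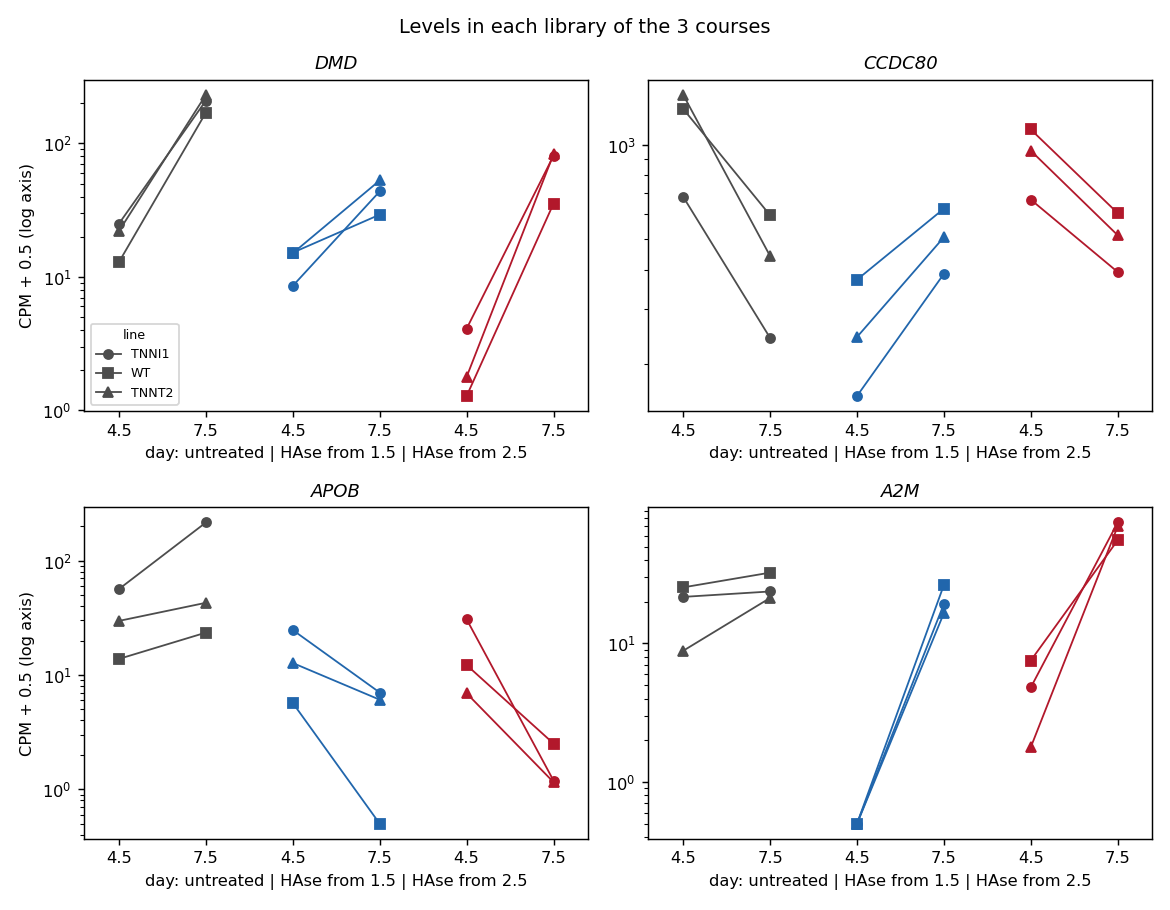
Levels of DMD, CCDC80, APOB and A2M in each library of the 3 courses, as CPM + 0.5 on a log axis, with day 4.5 and day 7.5 of each line joined. CCDC80 goes down in the untreated course and with the enzyme from day 2.5 and up with the enzyme from day 1.5, in all 3 lines. DMD starts lowest with the enzyme from day 2.5, at 0.781 to 3.59 CPM.

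The course begun at day 1.5 called more genes of all kinds (5.17% higher and 4.34% lower, against 1.97% and 1.05% here), so counts of list members are read beside these shares. It called 20 of 29 sarcomere genes higher (median 1.97), 29 of 30 mitosis genes lower (−2.28) and 17 of 30 DNA replication genes lower (−1.46). The same lists had 9, 5 and 0 calls in the course begun at day 2.5, with medians of 1.30, −0.83 and −0.47. No sarcomere, mitosis or replication gene passed the test of the difference. The list medians of the difference were −0.78, 1.27 and 0.90, against −0.02 over all genes. MYOM1, for example, had 7.45, 21.6 and 8.15 CPM at day 4.5 and 434, 359.5 and 829 CPM at day 7.5 in the course begun at day 1.5, and its difference of −3.02 had an adjusted p of 0.430. FN1 had 3569, 7618 and 7364 and then 4832, 4501 and 3732 CPM there (log2 −0.31) against −1.80 here, a difference of −1.49 with an adjusted p of 0.511.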

How the data were processed

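The series holds 65 libraries, of which the 24 of the hyaluronidase arm were fitted together. The authors deposited raw counts per gene, made with featureCounts from Subread 1.6.2 on hg38 or GRCh38, per the submitters' processing notes. The aligner, annotation release, strand setting and treatment of multi-mapped reads are not given in the sources used here. The 4 columns that matched no sample were not used. Gene positions are from GENCODE 29 on GRCh38, which held all 58735 gene IDs. edgeR 4.0.16 (TMM scaling, a minimum count of 10 in its expression filter, robust quasi-likelihood, terms for group and line, two-sided, Benjamini-Hochberg over 12748 genes, threshold 0.05) gave log2 fold changes with standard errors. Line was the block because each line gave 1 library per group; residuals of libraries of the same line correlated at 0.258, 0.217 and 0.179. DESeq2 1.42.0, scaling by relative log expression (RLE), no filter, no line term, only the compared libraries and libraries left out in turn were alternatives. The fit was also run on simulated data drawn without differences between lines. The outcome is not reported here, and such data cannot show how the fit handles line differences. CPM is the count over the library total. Replicates are labelled biological, but whether they are separate differentiations is not stated, so p-values measure the spread between these libraries.

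Named genes were the 12 highest and 12 lowest log2 changes among called genes with at least 10 CPM, up to 4 called and 2 uncalled members of each list, the extreme differences between courses, and HAS2. Other genes named, list members beyond those numbers included, were chosen after their values were seen. The groups and lists were chosen with earlier results of these data known. Promoter sequences are from RefSeq, GRCh38.p14. Counting intervals and floors cover counting error only. At 1281116 to 1559861 counts per library, 1 count is 0.641 to 0.781 CPM, so ratios of genes near 0 are imprecise. Some genes named by these rules are not reported here.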

Additional observations from a re-analysis of the deposited data

Results flagged for a closer look

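In 2 genes the change from day 4.5 to day 7.5 differed between the course with hyaluronidase from day 2.5 and the course with hyaluronidase from day 1.5, by the interaction term of edgeR's quasi-likelihood test with Benjamini-Hochberg adjustment. DMD had a log2 difference of 3.33 and CCDC80 of −1.86, each with an adjusted p of 0.0151. In DMD the change was larger with the later start in 3 of 3 lines, and in CCDC80 it was lower in 3 of 3 lines. Both lost the call in fits that left out single libraries or a whole line, as given with their values above. The day 4.5 libraries of the course begun at day 1.5 differed among themselves on the first principal component, from −34.7 to 16, and the part of this in either result was not tested.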

How the results depend on the processing

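The 385 calls of the course became 691 without the filter on low counts, 1659 in a fit of only the 6 compared libraries, 541 with DESeq2, 385 with RLE scaling and 292 at a log2 change of at least 1. Leaving out libraries or a line gave 23 to 234. Without the replicate block by line there were 246, and the difference from the untreated course had 0 calls with and without the block, while that from the course begun at day 1.5 went from 2 to 0. The difference from the untreated course had 2 calls with DESeq2, 41 without the filter, 3 with only the compared libraries and 0 to 5 with libraries left out. The difference from the course begun at day 1.5 had 10, 71 and 1 under those fits, and 0 to 21 with libraries left out. The cause of these shifts was not tested.

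Of 80 called genes followed through the alternatives, 12 passed in each and none changed sign. Some uncalled genes near 0 changed sign. COL3A1 had log2 −0.028 without the filter and −0.0049 with only the compared libraries. With libraries left out, log2 values ranged from −0.24 to 0.18 for ATF4, −0.41 to 0.026 for ATP5MC3, −0.18 to 0.16 for CDKN1C and −0.19 to 0.15 for COL3A1. They ranged from −0.31 to 0.016 for COL6A1, −0.083 to 0.00031 for COX4I1, −0.32 to 0.032 for ENO1 and −0.047 to 0.27 for FLNA. They ranged from −0.23 to 0.26 for GJC1, −0.20 to 0.12 for LAMC1, −0.16 to 0.088 for MDH2, −0.41 to 0.012 for NID2 and −0.031 to 0.14 for TEAD1. Genes with few counts at either day had wide intervals. Libraries of different lines in 1 group differed by 3.59 to 6.95 times counting noise (chi-square per degree of freedom), and how far depth or this spread sets the intervals was not tested.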

Other observations

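Among the 385 genes called in the course with hyaluronidase from day 2.5, 13 had a log2 change of opposite sign in untreated cardioids, and none of the 13 passed there. Of genes not described above, SCUBE1, a secreted and membrane-bound EGF-domain protein, rose by 2.70 with the enzyme and had −0.38 without it. TRIM32, a ubiquitin ligase of striated muscle, rose by 2.21 against −0.054. FERMT1, kindlin 1, which activates integrins, rose by 1.48 against −0.014, and TNFRSF21, a death receptor, rose by 1.12 against −0.42. NCOA4, which delivers ferritin to lysosomes, rose by 0.76 against −0.067.

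NPR3, the clearance receptor of natriuretic peptides, fell by 1.57 with the enzyme and had 0.032 without it, and PTPRM, an adhesive receptor phosphatase, fell by 1.06 against 0.079. HIF1A, the hypoxia-inducible factor, fell by 0.62 against 0.049, and NFKBID, an atypical inhibitor of NF-kappa-B signalling, fell by 2.37 against 0.52. These genes were picked by their sign after the values were seen, and none passed the test of the difference between the courses after adjustment over all genes.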
